A study of Mus musculus with 4 samples.

Results

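Laminin chains and integrin subunits were described in CD45-negative cells of mouse lymph nodes. The genes were chosen by name: every non-control probe of the array whose gene name in the files was Lama, Lamb or Lamc with a number, or Itga or Itgb with a number or letters, with the integrin-binding proteins left out. This gave 37 genes, 10 laminin chains and 27 integrin genes, measured by 80 of the 41174 probes on the array. Cells of the mesenteric lymph node (mLN) that drains the intestine were compared with those of the peripheral lymph node (pLN). The mice were wild-type, of the strain C57BL/6NCrl, and no treatment of the animals is named. Nodes were digested with collagenase and cells lacking CD45, the antigen of leukocytes, were isolated with magnetic beads. Total RNA of 1 mLN and 1 pLN sample from each of 2 experiments was hybridised to 1-colour Agilent arrays, 4 arrays in all. Age, the peripheral nodes taken, the number of animals per sample and whether the experiments used separate animals are not given in the sources used here, so the spread behind the p-values is that between these samples and may be technical.

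Laminins are secreted as trimers of an alpha, a beta and a gamma chain and build the sheet-like network of basement membranes. In lymph nodes they lie around blood and lymphatic vessels and in the sheath that fibroblastic reticular cells lay around the conduits, the collagen fibres that carry lymph into the tissue. Integrins are receptors of an alpha and a beta subunit that bind matrix or cell surface ligands and couple them to the cytoskeleton. The pairing sets the ligand: alpha subunits 3, 6 and 7 with beta 1, and alpha 6 with beta 4, bind laminin, other pairs bind collagen or the RGD motif of fibronectin and vitronectin, and the beta 2 and beta 7 subunits belong mainly to leukocytes.

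The probes below are those of the genes whose values the results turn on. Each is 60 bases long, and the first 30 are printed 5′ to 3′ as the files give them, with coordinates of the files on mm8. Capitals mark the bases that a pair of overlapping Itgb4 probes share within the printed stretch. The files do not say whether a probe lies in a coding exon or a UTR, and no annotation of mm8 was used here. The 3 probes of Itga6 (chr2, + strand) did not give the same difference, and those of Itgb4 (chr11, + strand) hold 50 bases in common in 2 of 3. Itgb8 (chr12, − strand) and Itgbl1 (chr14, + strand) gave the largest positive and the largest negative difference among the 35 laminin and integrin genes tested.
Itga6, chr2:71658755-71658814: tctggagtatcttggagcctagcacactgg
Itga6, chr2:71656976-71657035: gacacccagtatggacctacagtttcaact
Itga6, chr2:71655691-71655750: attctattcctgttgccgtcacaaaataag
Itgb4, chr11:115824333-115824392: CATAAAGTGGGTAGAGGTGATACAAGGTCT
Itgb4, chr11:115824323-115824382: gtccaggaacCATAAAGTGGGTAGAGGTGA
Itgb4, chr11:115810663-115810722: tggacagatatctactgaaaccatccttgt
Itgb8, chr12:119632348-119632407: ttccatttatttagaggaatgaccctaaca
Itgb8, chr12:119606659-119606718: gtgaacagatgaactttaatctaagcggtg
Itgb8, chr12:119646276-119646335: gaaaccttatttcaacctattgtaactctg
Itgbl1, chr14:123109045-123109104: ttattctcacataaaccaaccagtcagatt

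A level below is the log2 signal of the gene's probe relative to the 75th percentile of its array, which lay between 1686 and 1741 in the processed signal. Levels are compared between arrays for 1 probe and not between genes. A difference is the mLN mean minus the pLN mean on that scale, with its standard error from limma (n = 2 per node), and adjusted p-values are Benjamini-Hochberg values over all 21393 genes tested, with a threshold of 0.05. The experiment is not a term of this fit, so a shift between experiments widens the standard errors and intervals of the node difference. The array number, 4, limits the precision. Ptprc, the gene of CD45, was above background on all 4 arrays, which overlapped between the nodes (0.06 ± 0.21, adjusted p = 0.944). Fibroblastic reticular cell markers, 7 of 7 above background in both nodes, had a median difference of 0.03. Of 7 mesothelial markers, 6 passed the test as higher in mLN, beside 0.771% of all genes. The summed signal of the 7 (in units of the 75th percentile) was 3.45 and 4.89 in pLN and 40.4 and 30 in mLN. Of the 7, 2 (Wt1 and Bnc1) were not above background on either pLN array, and Upk1b and Lrrn4 were above it on 1. These genes, all among the 6, were kept through their mLN arrays alone under the filter described below. That filter favoured the direction of their differences. The 7 markers of pancreatic acinar cells summed to 16.8 and 1.16 in pLN and to 676 and 254 in mLN. Of the 7, 1 passed, beside 1.05% of all genes. This was Amy2a5, which was above background on neither pLN array and was kept through its mLN arrays alone. The filter thus favoured the direction of its difference. The part of these cell types in the results below was not tested. In a bulk sample, fewer cells of a type and less RNA per cell cannot be told apart.

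None of the 35 laminin and integrin genes tested passed the threshold. Across all genes 224 did, which is 1.05%, with 165 higher (0.771%) and 59 lower (0.276%) in mLN. At an unadjusted limma p under 0.05 there were 11 of 35, 7 higher and 4 lower in mLN, beside 14.7% of all genes (7.8% higher and 6.89% lower). The 35 differences ran from −1.73 to 1.19 with a median of 0.01, where the median of all genes was −0.03. For 15 of 35 genes the 2 mLN arrays lay entirely above (9) or below (6) the 2 pLN arrays, and over all genes this share was 45.6% (20.6% above and 25.1% below). A gene was kept if its probe was above background on both arrays of either node. Lama1 was kept through its mLN arrays alone, and Itga10 and Itgam through their pLN arrays alone, so the filter favoured the direction of their differences. These genes are among the 15, and Lama1 and Itga10 are also among the 11. A 95% interval within 2-fold either way was obtained for 16 of 35 genes, beside 71.4% of all genes, and the median standard error was 0.23 beside 0.18 for all genes. A difference of at least 2-fold in the same direction in both experiments occurred for Itgb8 (higher) and Itgbl1 (lower), 2 of 35, beside 4.45% of all genes. Of the 80 probes, 59 were above background on all 4 arrays and 7 on none.

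**Figure D1:**
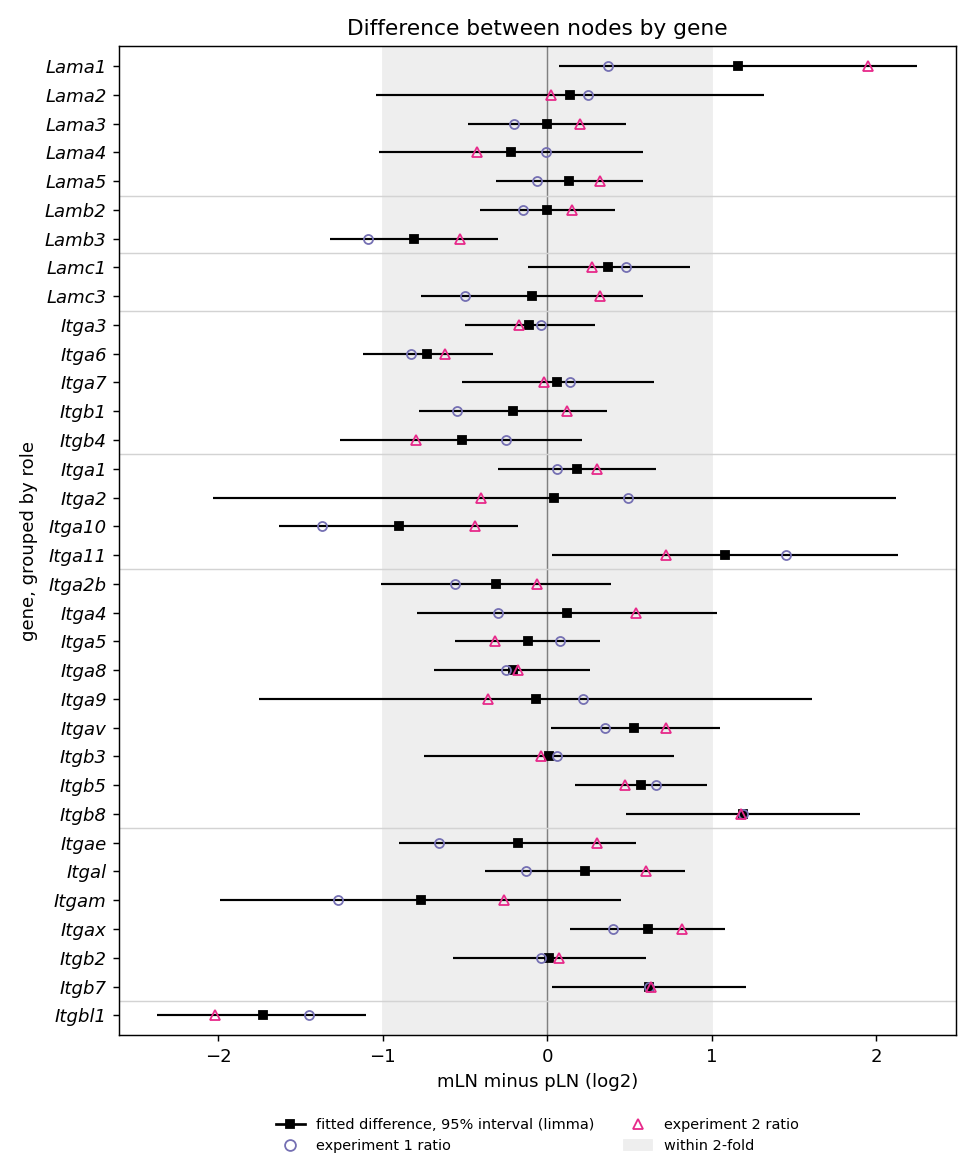
The mLN minus pLN difference (log2, x axis) of laminin and integrin genes (y axis, grouped by role), with squares for the fitted difference, bars for its 95% interval from limma, open circles for the experiment 1 ratio and triangles for the experiment 2 ratio. The grey band marks 2-fold either way: Itgbl1 is at −1.73 and Itgb8 at 1.19, and 16 intervals lie within the band.

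The 10 laminin chains were all tested, and 0 passed (2 at an unadjusted limma p under 0.05). Their differences had a median of 0.07 and ran from −0.81 to 1.16. The highest was that of Lama1, which was kept through its mLN arrays alone. Among the alpha chains, which carry the sites that integrins bind, the chain of vascular basement membrane, Lama4, had levels of 2.86 and 2.55 in pLN and 2.84 and 2.12 in mLN, a difference of −0.22 ± 0.30 (adjusted p = 0.819). The other vascular chain, Lama5, had 0.33 and 0.22 in pLN and 0.27 and 0.55 in mLN, a difference of 0.13 ± 0.17 (adjusted p = 0.802), and its 95% interval was −0.31 to 0.58. The coordinates of the only Lama5 probe span 15 bases, while the probe has 60, so its placement is incomplete. The arrays of the nodes overlapped for both genes. Lama3, a chain of epithelial laminin, had a mean of −1.70 in each node, with an interval of the difference of −0.48 to 0.48.

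Lama2, a chain of muscle, nerve and mesenchymal basement membranes, separated the experiments more than the nodes. It had −0.16 in pLN and 0.09 in mLN in experiment 1, and −0.91 and −0.89 in experiment 2. The node difference was 0.14 ± 0.44 (adjusted p = 0.935), while experiment 2 was lower than experiment 1 by a log2 difference of −0.75 in pLN and −0.98 in mLN. Lama1, the chain of embryonic and a few adult basement membranes, was above background on both mLN arrays (−6.60 and −5.95) and on neither pLN array (−6.97 and −7.89). Raising the pLN signal to the lowest signal above background on each array gave a value at least 1.48-fold higher in mLN, on that choice of floor, and the deposited value table, whose low values are set to 15, gave a log2 difference of 0.37. The fitted difference was 1.16 ± 0.40 (adjusted p = 0.311), and the ratios of the experiments were 0.37 and 1.95.

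Both beta chains chosen by name were tested. Lamb2, a chain of neuromuscular, kidney and vascular basement membranes, had levels of 1.68 and 1.48 in pLN and 1.53 and 1.62 in mLN, and the interval of its difference was −0.41 to 0.41. Lamb3, the beta chain of the laminin of epithelial anchoring structures, had −2.68 and −3.03 in pLN and −3.77 and −3.57 in mLN. The arrays did not overlap, and the difference was −0.81 ± 0.19 (adjusted p = 0.172), with ratios of −1.09 and −0.53. With normexp background correction the Lamb3 difference took the other sign, 0.51. The beta 1 chain is named Lamb1-1 in the files and so fell outside the name rule. Its probe had 2.84 and 2.42 in pLN and 2.92 and 2.54 in mLN, a difference of 0.10 ± 0.23 (adjusted p = 0.909), with overlapping arrays.

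Of the gamma chains, Lamc1, which is part of most laminin trimers, had 2.85 and 2.71 in pLN and 3.32 and 2.98 in mLN. The mLN arrays were the higher pair, but the difference of 0.37 ± 0.18 did not pass (adjusted p = 0.466). Lamc3 had a difference of −0.09 ± 0.25 by its representing probe and of 0.02 by another. The third probe was above background on the 2 mLN arrays alone, at −6.54 and −5.97.

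**Figure D2:**
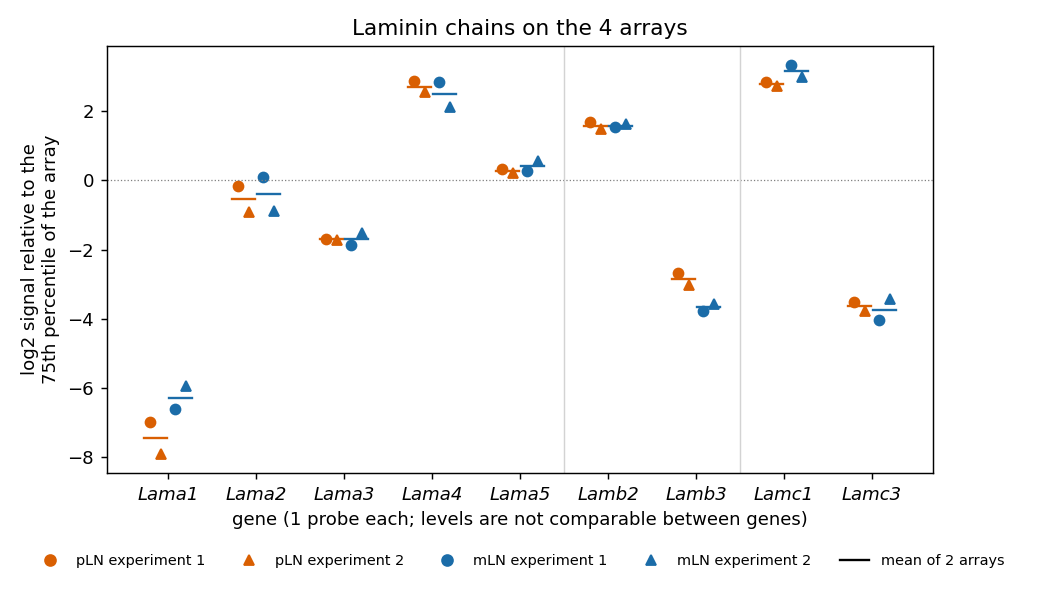
Log2 signal relative to the array's 75th percentile (y axis) of laminin chains (x axis), with orange points for pLN, blue points for mLN, circles for experiment 1, triangles for experiment 2 and lines for the mean of 2 arrays. The pLN and mLN points of Lamb3, Lamc1 and Lama1 do not overlap, and those of Lama2 split by experiment, from 0.09 and −0.16 to −0.89 and −0.91.

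The laminin receptors among the integrins comprise 3 alpha and 2 beta subunits, and none of the 5 passed. Itga6, the alpha subunit shared by a beta 1 and a beta 4 receptor, had levels of 2.97 and 2.79 in pLN and 2.14 and 2.16 in mLN. Both mLN arrays were below both pLN arrays, and the difference was −0.73 ± 0.15, with a 95% interval of −1.12 to −0.33 (adjusted p = 0.138). Its partner in hemidesmosomes, Itgb4, had 2.40 and 2.25 in pLN and 2.14 and 1.45 in mLN, a difference of −0.52 ± 0.27 (adjusted p = 0.496). The mLN pair was again the lower one, by −0.25 in experiment 1 and −0.80 in experiment 2.

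Itgb1, the common beta subunit of most matrix receptors, had 3.88 and 3.45 in pLN and 3.34 and 3.58 in mLN. The arrays overlapped, and the difference of −0.21 ± 0.21 (adjusted p = 0.748) had opposite signs in the experiments, −0.55 and 0.12. Itga3, a receptor subunit for the laminins with alpha chains 3 and 5, differed by −0.11 ± 0.15 by its representing probe, with an interval of −0.50 to 0.29. Its other probes, above background on all 4 arrays, gave −0.52 ± 0.14 and −0.01 ± 0.14. The former had −0.56 and −0.59 in pLN and −1.05 and −1.14 in mLN, so the Itga3 probes differed in size. Itga7, the laminin receptor subunit of muscle, differed by 0.06 ± 0.22, with an interval of −0.52 to 0.65.

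The tested probes of Itga6 and Itgb4 were set beside one another and beside cell type markers. The Itga6 probe at chr2:71656976-71657035 gave −0.68 ± 0.19 and the one at chr2:71655691-71655750 gave 0.35 ± 0.42, and the latter was at −3.35 and −2.18 in pLN and −2.40 and −2.44 in mLN, above background on all 4 arrays. Averaged over its 3 probes, Itga6 differed by −0.35 (limma adjusted p = 0.453, and 0.0596 to 0.69 over the 13 alternatives). The Itgb4 probe that overlaps the representing one gave −0.58 ± 0.25, and the probe that shares no bases with it gave −0.20 ± 0.27. Both genes are made by endothelial and epithelial cells. Blood endothelial markers were negative in both experiments for 6 of 6 genes, between −0.67 and −0.45, and none passed. Over all 21393 genes, 7477 were negative and 5995 positive in both experiments. The summed signal of the 6 endothelial markers was 95.3 and 86.7 in pLN and 67.3 and 59.9 in mLN, and all 6 were above background in both nodes. Epithelial markers were negative in both experiments for 6 of 9 genes and positive in both for 2. Of the 6, 3 passed as lower, beside 0.276% of all genes. The summed signal was 12.1 and 19.9 in pLN and 7.78 and 5.44 in mLN. Of the 9, 2 (Elf5 and Esrp1) were not above background on either mLN array and were kept through their pLN arrays alone. Both are among the 6 and Esrp1 is among the 3, so the filter favoured their direction. The part of these cells in the values of Itga6, Itgb4 and Lamb3 was not tested.

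The collagen receptors comprise 4 alpha subunits, all tested, of which none passed. Itga1, which binds basement membrane collagen, differed by 0.18 ± 0.18 and its interval was −0.30 to 0.66. Itga11, the fibrillar collagen receptor of fibroblasts, had 0.05 and −0.25 in pLN and 1.50 and 0.46 in mLN. The mLN arrays were the higher pair, and the difference was 1.08 ± 0.39 (adjusted p = 0.325), 1.45 in experiment 1 and 0.72 in experiment 2. Smooth muscle and pericyte markers were positive in both experiments for 5 of 6 genes, beside 5995 of all 21393 genes. Their summed signal was 61.4 and 70.8 in pLN and 97.1 and 89.4 in mLN, with all 6 above background. The highest signal of that list was Acta2, with 5.67 and 5.89 in pLN and 6.43 and 6.30 in mLN. The list's Rgs5 went the other way (−0.66 ± 0.23), and none of the 6 passed. Fibroblastic reticular cell markers had a median difference of 0.03. The part of these cells in the value of Itga11 was not tested.

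Itga10, a collagen receptor subunit known from cartilage, had −5.56 and −6.17 in pLN and −6.93 and −6.61 in mLN. It was above background on 1 of 2 mLN arrays, and with the other raised to the lowest signal above background the mLN mean was 1.81-fold lower. The fitted difference was −0.90 ± 0.27 (adjusted p = 0.25), and it took the other sign with normexp, 1.36. Itga2, a collagen receptor subunit of platelets and epithelia, had −2.74 in pLN and −2.25 in mLN in experiment 1 and −3.82 and −4.22 in experiment 2. The experiments differed by −1.08 in pLN and −1.97 in mLN, and the node difference of 0.04 ± 0.77 had an interval of −2.03 to 2.12.

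Of the 10 subunits of RGD-binding and related receptors, 9 were tested and 0 passed (3 at an unadjusted limma p under 0.05, all higher in mLN). The alpha v subunit pairs with several beta subunits to bind vitronectin, fibronectin and latent TGF-beta. Its gene Itgav had 0.72 and 0.76 in pLN and 1.07 and 1.48 in mLN, a difference of 0.53 ± 0.19 (adjusted p = 0.326). Its partner in the vitronectin receptor, Itgb5, had 1.70 and 1.69 in pLN and 2.36 and 2.17 in mLN, a difference of 0.57 ± 0.15 (adjusted p = 0.203). In both genes the mLN arrays lay above the pLN arrays.

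Itgb8, the beta subunit that with alpha v activates latent TGF-beta, had −4.74 and −5.22 in pLN and −3.55 and −4.03 in mLN. The difference was 1.19 ± 0.26, an interval of 0.48 to 1.90, and the ratios of the experiments were 1.19 and 1.18 (adjusted p = 0.159, or 0.0661 in the blocked fit and up to 0.69 over the 13 alternatives). Of the other Itgb8 probes, the one at chr12:119606659-119606718 was above background on 1 array and the one at chr12:119646276-119646335 on none, so they did not enter. With normexp the Itgb8 difference was 1.80. Itgb3, the beta 3 subunit of platelets and of the vitronectin receptor, had 1.40 and 0.93 in pLN and 1.46 and 0.88 in mLN, a difference of 0.01 ± 0.28. Its arrays paired by experiment and not by node. Itgb6, the epithelial partner of alpha v, was not tested, since none of its 3 probes was above background on any array.

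The other RGD-type and related subunits had overlapping arrays. Itga5, the fibronectin receptor subunit, differed by −0.12 ± 0.16 and Itga8, the nephronectin receptor subunit of mesenchyme, by −0.21 ± 0.18, and both intervals lay within 2-fold. Itga2b, the alpha subunit of the platelet fibrinogen receptor, had 0.79 and 0.14 in pLN and 0.23 and 0.09 in mLN (−0.31 ± 0.26, adjusted p = 0.687). Platelet markers were negative in both experiments for 4 of 5 genes, beside 7477 of all 21393 genes. Of these 4, Gp9 and Gp6 were above background on 1 mLN array and kept through their pLN arrays alone, so the filter favoured their direction. The summed signal of the list was 7.71 and 8.24 in pLN and 3.52 and 5.03 in mLN. The part of platelets in the Itga2b value was not tested. Itga4, which binds Vcam1 and fibronectin, differed by 0.12 ± 0.34, and 3 of its 6 probes entered the analysis.

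Itga9, a receptor subunit for tenascin and osteopontin that is known from lymphatic valves, separated the experiments. It had 0.49 in pLN and 0.71 in mLN in experiment 1 and −0.46 and −0.82 in experiment 2, and the node difference was −0.07 ± 0.62, with an interval of −1.75 to 1.61. A probe for a clone that RefSeq lists as a synonym of Itga9 carries the clone's name, 6720458D17Rik, in the files and lies outside the name rule. It too was lower in experiment 2, by −0.62 in pLN and −0.56 in mLN, and had a node difference of −0.12 ± 0.31.

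The leukocyte subunits were measurable in the CD45-negative samples. All 6 were tested, and none passed (2 at an unadjusted limma p under 0.05). Itgb2, the common beta subunit of the leukocyte integrins, had −2.04 and −2.46 in pLN and −2.09 and −2.39 in mLN, a difference of 0.01 ± 0.22 with an interval of −0.57 to 0.60. Its alpha partner on lymphocytes, Itgal, differed by 0.23 ± 0.23 by its representing probe and by −0.41 by the other. Itgae, the subunit of intraepithelial lymphocytes that binds E-cadherin, differed by −0.18 ± 0.27.

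Itgax, which encodes the alpha subunit CD11c of dendritic cells, had −3.83 and −3.92 in pLN and −3.43 and −3.10 in mLN, a difference of 0.61 ± 0.17 (adjusted p = 0.234). Its other probe gave 0.08 ± 0.29. Itgb7, the beta subunit of the gut homing receptor of lymphocytes, had −2.66 and −2.30 in pLN and −2.04 and −1.67 in mLN, with ratios of 0.62 and 0.63 (0.62 ± 0.22, adjusted p = 0.315). The arrays of both genes did not overlap, with mLN higher. Itgam, which encodes the alpha subunit CD11b of myeloid cells, had −4.92 and −6.18 in pLN and −6.19 and −6.44 in mLN, a difference of −0.77 ± 0.45 (adjusted p = 0.55). It was above background on 1 of 2 mLN arrays, and with normexp the difference took the other sign, 1.28. Leukocyte markers were all above background in both nodes, with 4 of 10 positive and 3 of 10 negative in both experiments. Over all 21393 genes, 5995 were positive and 7477 negative in both. The leukocyte markers summed to 16.2 and 10.4 in pLN and 10 and 8.93 in mLN. Their part in these values was not tested.

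A pair of genes carry an integrin name without being classical subunits. Itgbl1, whose product is a secreted protein of EGF-like repeats resembling those of beta subunits, had the same level, 0.20, on both pLN arrays and −1.24 and −1.82 on the mLN arrays. The groups were far apart relative to the spread within them, and Itgbl1 was 3.33-fold lower in mLN by the fitted means, a difference of −1.73 ± 0.24 with an interval of −2.37 to −1.10. Its adjusted p was 0.0763, so it did not pass, and it passed in 2 alternative settings, with adjusted p = 0.0422 under median scaling and 0.0334 with an intensity trend in the variance (0.0334 to 0.69 over the 13 alternatives). With normexp the difference was −1.03. The ratios of the experiments were −1.45 and −2.02. Itgb2l, a relative of Itgb2, was above background on 1 array of each node and was not tested.

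**Figure D3:**
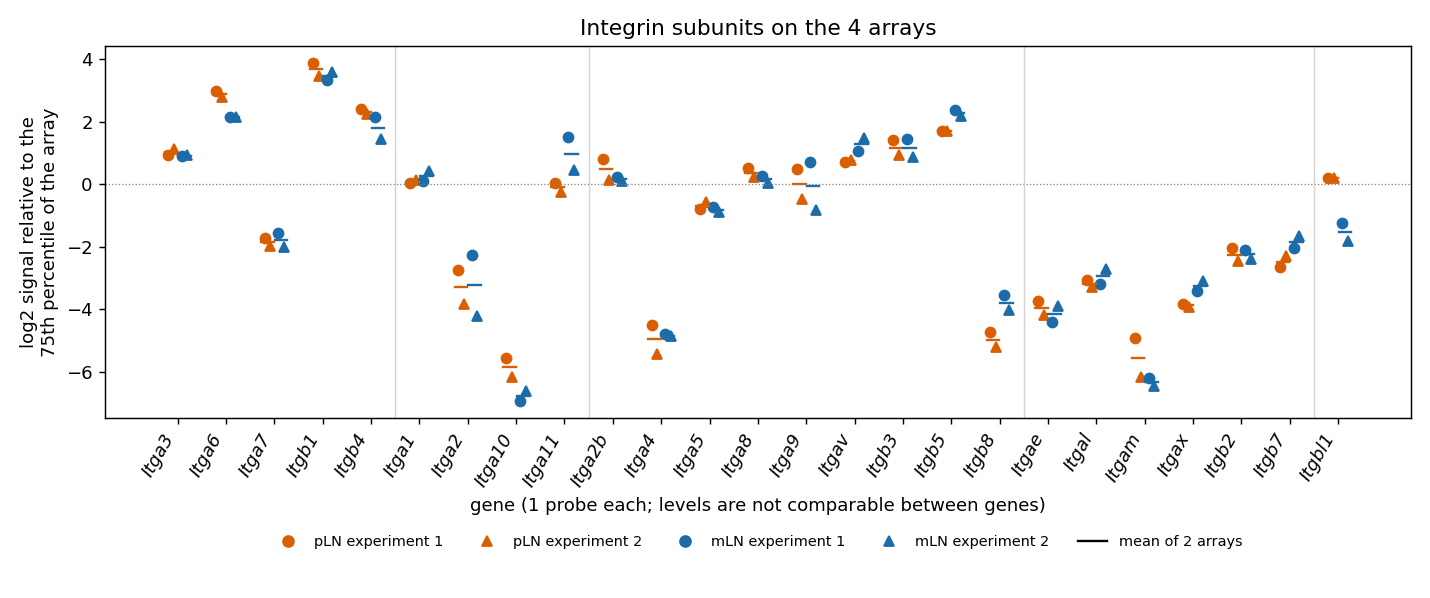
Log2 signal relative to the array's 75th percentile (y axis) of the 25 tested integrin genes (x axis, by ligand class), with orange points for pLN, blue points for mLN, circles for experiment 1, triangles for experiment 2 and lines for the mean of 2 arrays. Itgbl1 lies at 0.20 on both pLN arrays and at −1.24 and −1.82 in mLN, and the points of Itga2 and Itga9 split by experiment.

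For 19 genes more than 1 probe entered, and for 6 of these (Itga1, Itga4, Itga6, Itgal, Itgb3 and Lamc3) the probes gave differences of opposite sign. In Itgb3 the probes were 0.05 apart and in Itga6 1.08. The 4 probes of Itgav were all positive, from 0.19 to 0.61, and the 4 of Lama4 all negative, from −0.89 to −0.19. The probe of Lama4 that gave −0.89 was above background on 3 of 4 arrays, and its lowest value, −6.27, was on the experiment 2 array of mLN. Itgb1 and Lama2 have a probe printed in 10 copies on each array. Within an array the copies had a standard deviation between 0.02 and 0.06, which covers the scatter between spots and not that between samples or labellings.

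**Figure D4:**
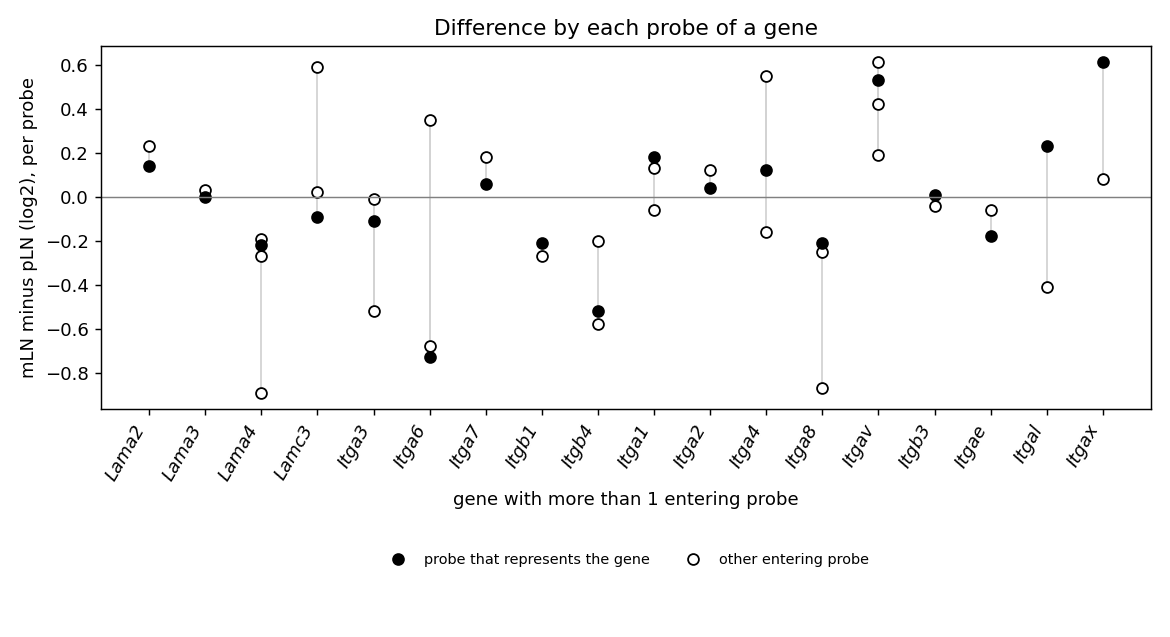
The mLN minus pLN difference (log2, y axis) given by each entering probe of genes with more than 1 entering probe (x axis), with filled points for the probe that represents the gene and open points for the others, of which the highest of Lamc3 was above background in mLN alone. The probes of Itga6 range from −0.73 to 0.35, and those of Itgb1, Itgb3 and Lama3 lie less than 0.1 apart.

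The experiments differed by more than the nodes in 15 of 35 genes (5 of 10 laminin chains and 10 of 25 integrin genes), beside 43.2% of all genes. The largest such differences, mean experiment 2 minus experiment 1 over both nodes, were −1.52 for Itga2, −1.24 for Itga9 and −0.86 for Lama2. Adipocyte markers had a median experiment difference of −2.27 in pLN and −2.17 in mLN over the 3 genes tested, and their summed signal was 3.04 and 3.7 in the pLN and mLN arrays of experiment 1 and 0.632 and 0.816 in those of experiment 2. Other lists shifted too: the median experiment difference was −3.01 in pLN and −1.78 in mLN for pancreatic acinar markers, and −0.34 and −0.98 for platelet markers. For fibroblastic reticular cell markers it was 0.14 and 0.03, and for lymphatic endothelial markers −0.33 and −0.62. Schwann cell markers had −0.32 and 0.16, and skeletal muscle markers 0.17 and −0.19. The part of any of these cells in the values of Lama2, Itga2 and Itga9 was not tested. In Itgb8 and Itgb7, the ratio of mLN to pLN differed between the experiments by at most 0.01 as rounded.

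**Figure D5:**
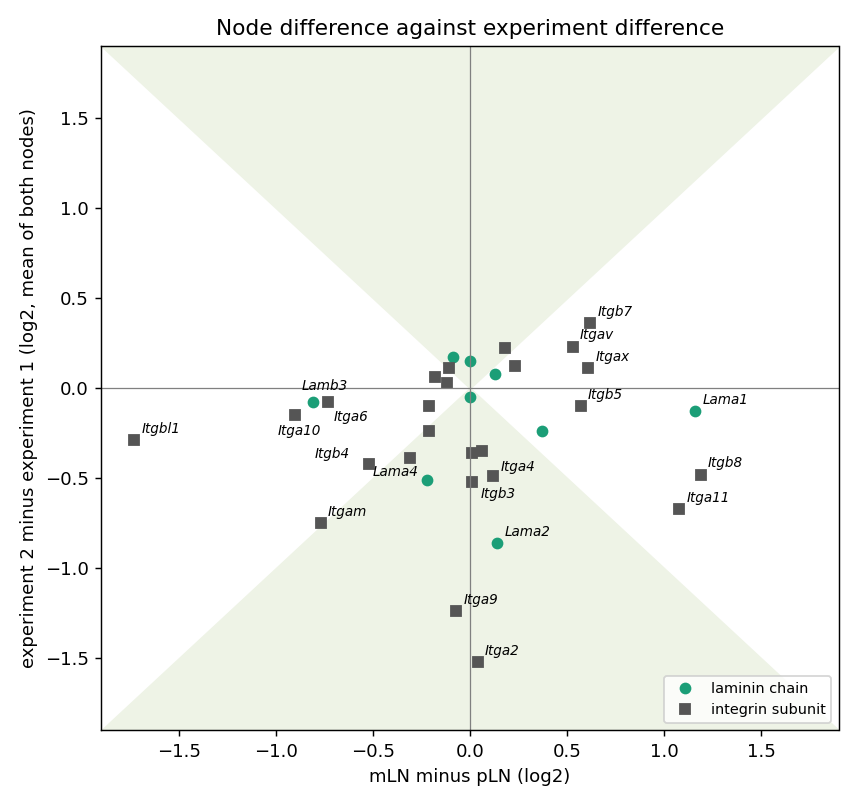
For laminin and integrin genes, the mLN minus pLN difference (x axis, log2) against the mean experiment 2 minus experiment 1 difference (y axis, log2), with green circles for laminin chains and grey squares for integrin genes. In the shaded area the difference between experiments is the larger one, as for Itga2 at −1.52 and Itga9 at −1.24, while Itgbl1, Itgb8 and Itga6 lie outside it.

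The other genes of the laminin and integrin system were taken from 4 lists. Across all genes 1.05% passed and 14.7% had an unadjusted limma p under 0.05. Of 23 partners of laminin in the basement membrane, 21 were tested and 0 passed (4 at an unadjusted limma p under 0.05), with a median difference of 0.09. The smallest p belonged to Fras1, a protein that links epithelia to the underlying matrix (1.52 ± 0.32, adjusted p = 0.15), and Col4a3, a collagen IV chain of kidney and lung basement membranes (1.14 ± 0.34, adjusted p = 0.257). Of 19 other laminin receptors and tetraspanins, all tested, 0 passed (5 at an unadjusted limma p under 0.05, all higher in mLN), with a median of 0.15. Dtna and Sgce, parts of the dystroglycan-associated complex, each differed by 0.65, with standard errors of 0.14 and 0.15 (adjusted p = 0.144 and 0.177).

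Of 27 proteins that bind integrins inside the cell, such as talins and kindlins, 25 were tested and 0 passed (1 at an unadjusted limma p under 0.05). Their median was 0.03, and 23 of 25 intervals lay within 2-fold, beside 71.4% of all genes. Flna, an actin crosslinker that binds beta subunits, differed by 0.41 ± 0.14 (adjusted p = 0.307) and Bcar1, an adaptor of focal adhesions, by −0.34 ± 0.14 (adjusted p = 0.382). Of 31 other integrin ligands, 30 were tested and 1 passed, beside 1.05% of all genes. At an unadjusted limma p under 0.05 there were 13 (7 higher and 6 lower in mLN), beside 14.7% of all genes. Among the 6 lower, Fgb and Fgg were above background on 1 of 2 mLN arrays and were kept through their pLN arrays alone. The filter thus favoured the direction of their differences. Col13a1, a transmembrane collagen, fell in mLN, from −0.71 and −0.78 in pLN to −2.43 and −2.62 in mLN (−1.78 ± 0.15, adjusted p = 0.0264). It did not pass with any 1 of the 4 arrays left out (−1.88 to −1.69, adjusted p from 0.0619 to 0.198), with normexp (−0.87, adjusted p = 0.69) or without the filter on dim probes (−1.78, adjusted p = 0.0871). Icam4, an adhesion molecule of red cells, differed by 1.11 ± 0.16 (adjusted p = 0.0875). When the experiment entered the fit as a block, 3 of the 30 ligands passed, beside 333 of all 21393 genes. They were Col13a1 (adjusted p = 0.0359), the fibrinogen chain Fgg (lower in mLN, adjusted p = 0.013) and the osteopontin gene Spp1 (2.84, adjusted p = 0.0195). Fgg was above background on 1 of 2 mLN arrays, so it was kept through its pLN arrays alone, where it is high. With the dim array raised to the lowest signal above background it was 28.8-fold lower in mLN. Without the block, Fgg and Spp1 had adjusted p = 0.142 and 0.201, and both are named because they passed in that fit.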

How the data were processed

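The intensity values are those the authors deposited as scanner output of 4 arrays, with background subtraction in Agilent Feature Extraction (version 9.5.3.1) recorded per the file headers. Deposited flags, other columns of 0 or 1, mark spots that are well above background or outliers. All arrays lay on 1 slide scanned on 1 day. The deposited value table holds intensity values that equal the processed signal times 1 factor per array (0.8645, 0.8897, 0.8616 and 0.8668 for pLN 1, pLN 2, mLN 1 and mLN 2), with a floor of 15. The column medians are 169, 166.7, 172.4 and 160.8 in that order. The linear scale and the lack of centring were found by comparison, since the labels do not state them. The table served as an alternative.

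Control and outlier-flagged spots were left out, spots of a probe averaged, log2 taken and each array's 75th percentile subtracted. Probes flagged well above background on both mLN arrays, on both pLN arrays or on all 4 were kept, 31883 of 41174 (74.0% to 81.1% of probes per array carried the flag), and are called entering probes, while 19 probes lost all their spots. For each gene, the one with the highest mean was used. Names came from a RefSeq table on GRCm38.p6, used for names alone (24314 probes by accession, 6267 by symbol, 2426 by synonym, 8068 kept the file's name), and coordinates are those of the files.

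The 2 mLN arrays were tested against the 2 pLN arrays with limma 3.58.1 in R 4.3.3 (lmFit and eBayes, 2.35 prior and 4.35 total degrees of freedom), adjusted over all genes. The fit was also run on simulated arrays with independent normal noise for each gene. That simulation held no pairing by experiment and no background floor, so it does not test the fit under those conditions. An exact permutation of 2 against 2 cannot go below p = 0.333. The labels number the experiments, which the design text calls independent, so each number marks an mLN and a pLN sample of 1 experiment. Deviations of same-numbered samples correlated with r = 0.247 across genes, and the block is given where it changed a call. Alternatives were another background correction, scaling, filter, probe summary, value source and variance model, the block, and each array left out. The genes of the name rule are named, except 1 that is counted but not reported by name or drawn here, and of each list the genes that passed or, with fewer than 2, those with the smallest p. Further list and marker genes are named where a single value or the effect of the filter is described. The genes and lists were chosen with earlier results of these data known, so no test of a list was made. A bound raises each dim array to the lowest signal of any probe above background on it.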

Additional observations from a re-analysis of the deposited data

How the results depend on the processing

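The count of all genes past the threshold was 224, and became 0 with normexp background correction (637 at an unadjusted limma p under 0.05), 354 with median scaling, 44 without a filter on dim probes, 435 with an intensity trend in the variance, 333 with the experiment as a replicate block and 0 to 185 with 1 array left out. The laminin count stayed at 0 in all 13 alternatives. The integrin count went from 0 to 1 (Itgbl1) with median scaling and to 1 with the intensity trend. Among genes of the 4 context lists the count went from 1 to 0 with normexp, 0 without the filter, 3 with the replicate block and 0 to 1 with 1 array left out. The block changed no call of a laminin or integrin gene. Of the 35 genes, 15 kept their sign in all 13 alternatives and 20 did not, 16 of them with an array left out. Under normexp, which moved all genes by a median of 0.26 (to a median of 0.36), the sign turned for Itga10 (1.36), Itga5 (0.02), Itga9 (0.10), Itgae (1.01), Itgam (1.28), Itgb3 (−0.14), Lama3 (0.40), Lamb3 (0.51) and Lamc3 (0.93). Median scaling moved all genes by a median of 0.01, which took Lama3 (0.01) and Lamb2 (0.01), both at 0.00 before, past 0. The mean of the probes turned the sign of Itgal (−0.09), Itgb3 (−0.02), Lama3 (0.02) and Lamc3 (0.17). The causes were not tested. With 1 array left out, where the lone sample is assumed to vary like the others, the values that crossed 0 ranged over −0.63 to 0.01 for Itga2b, −0.83 to 0.70 for Itga9, −0.45 to 0.09 for Itgae, −0.43 to 0.01 for Itgb1, −0.18 to 0.17 for Lama3, −0.10 to 0.10 for Lamb2, −0.38 to 0.20 for Lamc3, −0.94 to 1.03 for Itga2, −0.15 to 0.28 for Itga7, −0.19 to 0.22 for Itgb2, −0.28 to 0.29 for Itgb3, −0.35 to 0.63 for Lama2, −0.34 to 0.58 for Itga4, −0.01 to 0.48 for Itgal, −0.58 to 0.14 for Lama4 and 0.00 to 0.27 for Lama5. Itgbl1 ranged from −2.02 to −1.45, Itgb8 from 0.95 to 1.43 and Itga6 from −0.82 to −0.63. Lama1, Itga10 and Itgam are not tested when all 4 arrays must be above background.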
